A study of Oryza sativa with 4 samples.

Results

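GAM1, MSP1, ASY1, MEAL1 and HEI10 are 5 rice genes of male meiosis and early anther development, and they were followed here in leaf RNA. They were found by symbol or synonym in the rice gene table, and the arrays carry 6 probe sets assigned to 1 of them each, of 57381 probe sets in all. They are 5 of 17905 genes with at least 1 probe set assigned to no other gene. The 4 samples were leaves of rice (Oryza sativa L., cultivar Nipponbare), 2 from plants transformed with pActnos/Hmz, the empty vector control, and 2 from plants transformed with pActnos/Hmz-OsRR6, the OsRR6 overexpressor. All were plants of the T0 generation, that is primary transformants, raised from callus with hygromycin-B, grown hydroponically to heading in cycles of 12 h light (30 °C) and 12 h dark (25 °C), and were 75 days old. OsRR6 belongs to the type-A response regulators, which dampen the response to the plant hormone cytokinin. The promoter of the transgene is not spelled out in the labels, nor do they say whether replicates were separate plants, so the p-values here reflect the spread between these samples alone, which may be technical.

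In the young rice anther, the cells that will enter meiosis are set apart from the surrounding wall layers, the innermost of which, the tapetum, feeds the developing pollen. MSP1 is a leucine-rich repeat receptor kinase that limits how many cells become sporocytes, and the small secreted protein TDL1A is its ligand. GAM1, better known as GAMYB, is a gibberellin-regulated MYB transcription factor needed for tapetum function, which also acts in the aleurone of germinating seeds. MEAL1, also called MEL1, is an Argonaute protein of germ cells, bound to small RNAs and needed for early meiosis. ASY1, also called PAIR2, is a protein of the meiotic chromosome axis needed for pairing of homologues, and HEI10 is a RING-domain protein that marks sites of crossing over.

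Values are array signals (linear scale), and group values are means ± SD over 2 arrays. The background level of an array is the signal that 95% of 69 control probe sets for transcripts not from rice stayed below, and it lay between 30.0 and 43.4. Replicates correlated at 0.988 in the control pair and 0.975 in the overexpressor pair over all tested probe sets, on the log2 scale. As a check of RNA quality, the log2 signal at the 3' end of cyclophilin minus that at its 5' end was 1.02 and 1.27 in control leaves against 1.10 and 0.78 in overexpressor leaves. The probe set of OsRR6 itself read 2558.7 and 2733.2 in control leaves against 2264.2 and 1989.4 in overexpressor leaves, a difference of -0.32 on the log2 scale (limma, SE 0.10, adjusted p = 0.0597). With the arrays scaled instead to their hybridisation spikes, RNAs not from rice that are added before hybridisation, it was -0.0022 (adjusted p = 0.989), and without overexpressor replicate 1 it was -0.41 and passed (adjusted p = 0.00514). It was thus not higher in the samples labelled overexpressor, and below, control and overexpressor leaves are leaves with those labels. Where in the transcript that probe set lies is not stated in the labels or files.

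Transcripts of all 5 genes gave signal above background on every array, through 1 probe set each. All 5 of these probe sets read higher on both overexpressor arrays than on both control arrays, by 1.23-fold (GAM1) to 2.41-fold (HEI10). A gap of this kind between the groups, with the overexpressor arrays higher, was found for 39.7% of all 28629 tested probe sets. HEI10 was the 1 member past the threshold, a call that was lost with no filter on signal (adjusted p = 0.077), and its control mean lay below that filter. Of all tested probe sets 15.4% were called higher and 13.1% lower.

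**Figure D1:**
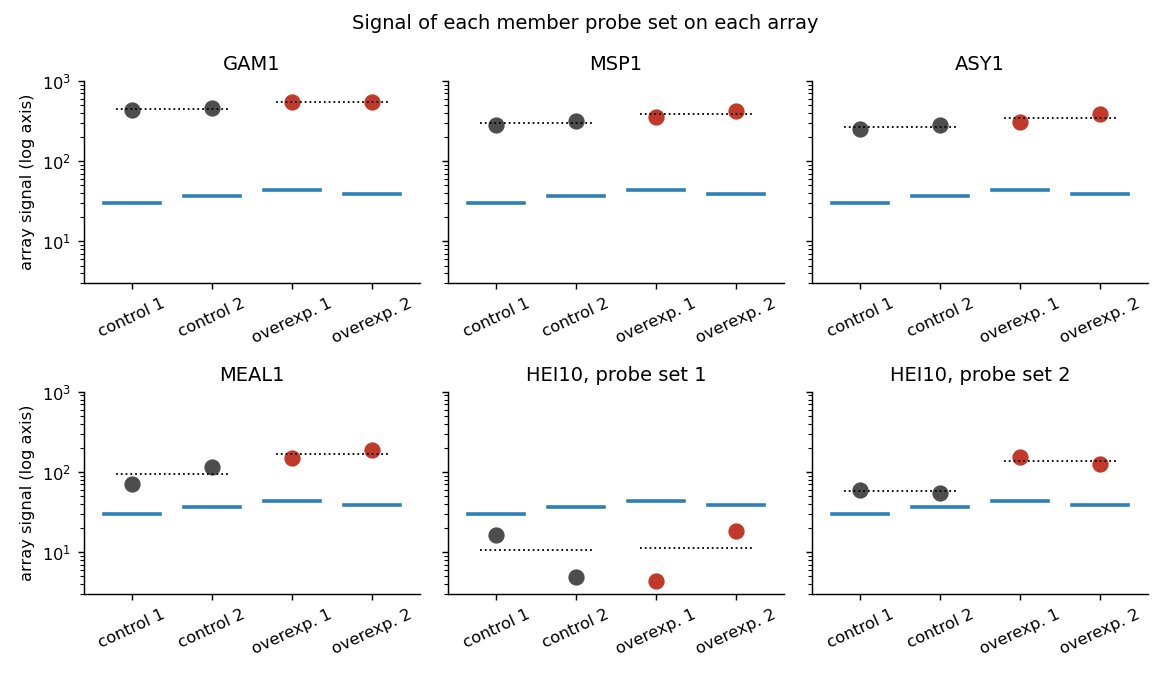
Signal of the 6 member probe sets on each array, on a log axis. Grey points are control arrays, red points OsRR6 overexpressor arrays, dotted lines group means, and blue bars the background level of each array. GAM1, MSP1, ASY1, MEAL1 and the second HEI10 probe set lie above the blue bars on all 4 arrays and higher on the overexpressor arrays, and the first HEI10 probe set lies below the bars throughout.

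MSP1 (LOC4324355), the receptor kinase, read 279.9 and 312.9 in control leaves against 351.7 and 418.2 in overexpressor leaves. The groups did not overlap, and the higher overexpressor value was on replicate 2. The means were 296.4 ± 23.3 and 385 ± 47.0, a difference of 0.37 on the log2 scale (limma, SE 0.17, 95% interval -0.04 to 0.78, adjusted p = 0.152), which did not pass. Without overexpressor replicate 1 the change was 0.49 and passed (adjusted p = 0.049), and without replicate 2 it was 0.25 (adjusted p = 0.291). In either of these fits the overexpressor arm is 1 array, assumed to vary like the control pair, which with the spread of all probe sets gives the error.

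GAM1 (LOC4327362) read 431.2 and 456.5 in control leaves against 551.4 and 543.8 in overexpressor leaves. Its pairs of replicates lay close together, with the groups apart. The means were 443.85 ± 17.9 and 547.6 ± 5.37, a difference of 0.30 on the log2 scale (limma, SE 0.13, 95% interval -0.01 to 0.61, adjusted p = 0.132), which did not pass. The name of this probe set ends in _x_at, a suffix the array maker gives to probe sets with probes that can also bind other transcripts, so the signal may hold more than GAM1.

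MEAL1 (LOC4334449) read 71.1 and 116.0 in control leaves against 148.2 and 188.8 in overexpressor leaves. The control arrays differed from each other more than the lowest overexpressor value differed from the highest control value. The means were 93.55 ± 31.7 and 168.5 ± 28.7, a difference of 0.85 on the log2 scale (limma, SE 0.31, 95% interval 0.10 to 1.61, unadjusted p = 0.0326 and adjusted p = 0.0888), which did not pass. Leaving out control replicate 1 lowered the change to 0.51 (adjusted p = 0.421), and leaving out control replicate 2 raised it to 1.19 (adjusted p = 0.0871).

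ASY1 (LOC4347514) read 254.8 and 282.8 in control leaves against 308.4 and 388.6 in overexpressor leaves. As with MSP1, the groups did not overlap and overexpressor replicate 2 was the highest array. The means were 268.8 ± 19.8 and 348.5 ± 56.7, a difference of 0.36 on the log2 scale (limma, SE 0.18, 95% interval -0.08 to 0.81, adjusted p = 0.191), which did not pass. Without overexpressor replicate 1 it was 0.53 and passed (adjusted p = 0.0449), with the spread again from the control pair, and without replicate 2 it was 0.20 (adjusted p = 0.42).

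HEI10 (LOC4328810) has 2 probe sets on the array, and they disagreed. The first read 16.3 and 4.9 in control leaves against 4.3 and 18.5 in overexpressor leaves. These values are within background on all 4 arrays, so this probe set gives no level and no fold, and it was not tested. The second read 59.8 and 54.8 in control leaves against 151.3 and 125.3 in overexpressor leaves. All 4 values lay above background, and the lower overexpressor value was well above the higher control value.

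The means of the second HEI10 probe set were 57.3 ± 3.54 and 138.3 ± 18.4, a rise of 1.22 on the log2 scale (SE 0.28, 95% interval 0.53 to 1.90, adjusted p = 0.0225 in limma). Its control mean of 5.93 on the log2 scale was below the 5.94 that the filter on signal asks for over all arrays, so it entered the test through the overexpressor arrays. The call was also lost without control replicate 1 (adjusted p = 0.0887), without control replicate 2 (0.109) and without overexpressor replicate 1 (0.0666), while the change stayed between 1.08 and 1.35 with any single array left out.

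**Figure D2:**
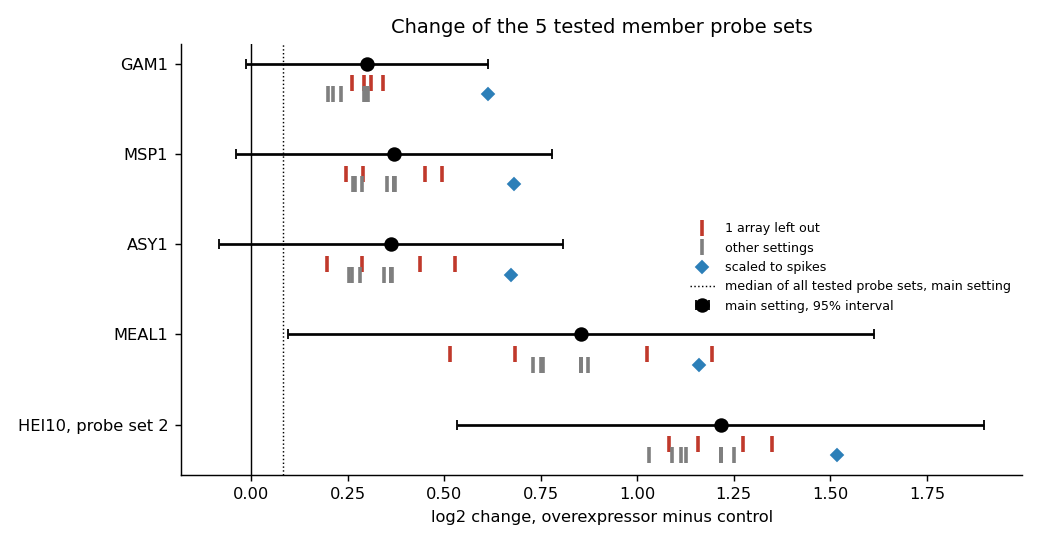
Log2 change, overexpressor minus control, of the 5 tested member probe sets. Black points with bars are the main setting with its 95% interval, red ticks leave out 1 array each, grey ticks are the other settings, blue diamonds are scaled to the hybridisation spikes, and the dotted line is the median change of all tested probe sets (0.08). All values lie above 0, and the intervals of GAM1, MSP1 and ASY1 reach below it.

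The median change of all tested probe sets was 0.08, and relative to it the members changed by 0.22 (GAM1), 0.29 (MSP1), 0.28 (ASY1), 0.77 (MEAL1) and 1.13 (HEI10). Scaling the arrays to the 27 hybridisation spike probe sets in place of the deposited scaling moved that median to 0.39. All 5 tested member probe sets then passed, with log2 changes from 0.61 (GAM1) to 1.52 (HEI10), and so did 40.3% of all tested probe sets in that direction. The size of the change therefore depended on the scaling, and its direction did not in any setting run.

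Other genes of meiosis were taken from 4 lists of textbook genes, without the members. No gene was found for 9 of 20 symbols written for DNA break formation and 22 of 39 for strand exchange and repair. The same held for 18 of 30 for axis, synapsis and crossover, and 17 of 23 for entry, cohesion and segregation. The counts below thus cover matched genes only and are no survey of the meiosis genes. Of their 19 tested genes 6 rose, 1 fell and 12 missed the threshold, with a median log2 change of 0.37. The 6 became 2 (RPA1B and RPA2A) without control replicate 1, 1 (RPA2A) without control replicate 2, 3 without a trend of the spread with signal, and 11 after spike scaling, while the 1 lower gene, TOP6A3, passed in all 14 other settings. Across all genes, each by its brightest tested probe set, 18.8% were called higher and 15.2% lower, with a median of 0.09. A further 6 listed meiosis genes had signals below the filter and were not tested.

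The higher genes of strand exchange and repair were all subunits of replication protein A, the complex that coats single-stranded DNA in replication, repair and recombination. RPA1B read 213.2 and 178.1 in control leaves against 393.4 and 677.8 in overexpressor leaves, a rise of 1.39 (SE 0.27, adjusted p = 0.0131). RPA2A rose from 331.9 and 317.1 to 625.3 and 1119.2, by 1.36 (SE 0.27, adjusted p = 0.0126). For both, overexpressor replicate 2 was the highest array by a wide margin.

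RPA1C rose by 0.93 (SE 0.18), RPA1A by 0.59 (SE 0.15) and RPA2B by 0.37 (SE 0.11), with adjusted p-values of 0.0115, 0.0279 and 0.0468 in limma. RPA2B missed the threshold in 8 of the 14 other settings and RPA1A in 6 of the 13 in which it was tested, among them quantile normalization, cyclic loess, median centring and either control array left out. RPA1C missed it with either control array left out. RPA2C, at 0.18 (adjusted p = 0.57), did not pass. MRE11 and NBS1, partners in the complex that processes broken DNA ends, had changes of 0.21 and 0.38 and did not pass either. In this list of 8 tested genes 5 rose, 0 fell (0 also at an unadjusted p of 0.05) and 3 missed the threshold, where 18.8% of all genes were called higher. DMC1, the strand exchange protein specific to meiosis, read 66.0 and 39.5 in control leaves against 34.7 and 73.7 in overexpressor leaves, with overlapping groups, and was below the filter.

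Among the genes for the making of DNA breaks, SPO11-4, a homologue of the Spo11 nuclease, rose from 1077.8 and 1094.5 to 1600.0 and 1972.5, by 0.71 (SE 0.13, adjusted p = 0.00903 in limma), a call lost with either control array left out. TOP6A3, also called SPO11-3, went the other way. It read 2285.2 and 2317.9 in control leaves against 626.1 and 667.1 in overexpressor leaves, a change of -1.83 (SE 0.10, adjusted p = 0.000282), with the pairs of replicates close together. In Arabidopsis its counterpart is a subunit of topoisomerase VI that serves the repeated DNA replication of growing cells rather than meiosis.

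The other tested genes of that list were TOP6B, the partner subunit, at 0.11 (adjusted p = 0.719 in limma) and SPO11-2 at 0.74 (adjusted p = 0.0922). That SPO11-2 value is from a probe set ending in _x_at. A dimmer SPO11-2 probe set gave 0.58 (adjusted p = 0.268), and another was within background on all 4 arrays. PAIR1, CRC1 and the meiotic cyclin gene SDS were below the filter. CRC1, a protein of the break-forming and synapsis machinery, read 34.2 and 27.7 in control leaves against 49.8 and 74.0 in overexpressor leaves. CRC1 was above background on 3 of 4 arrays and PAIR1 on 1. The 2 probe sets of SDS disagreed. One ending in _x_at was above background on 4 of 4 arrays, and the other on 1, control replicate 1.

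None of the 5 tested genes in the list of axis, synapsis and crossover passed in limma (0 after adjustment, and 1, SEND1, at an unadjusted p of 0.05). They were MUS81, GEN1, SEND1, MSH5 and SHOC1, which are nucleases or crossover genes, nearer in role to HEI10 than to ASY1. No other gene of the chromosome axis was tested, so the list does not cover partners of ASY1 there. The brightest were MUS81, a nuclease that resolves recombination intermediates, at 0.26 (adjusted p = 0.406) and GEN1 at 0.25 (adjusted p = 0.415). SEND1, a related nuclease, had 0.79 (adjusted p = 0.09), and MSH5 and SHOC1, which work with HEI10 in crossover formation, had 0.21 and -0.0014 (adjusted p = 0.615 and 0.998). MER3, the helicase of the same pathway, was above background on 2 of 4 arrays, and EXO1 on 3. The list of entry, cohesion and segregation held only 2 genes with a probe set, ETFB and the kinesin gene PSS1, and so no gene of cohesion. ETFB (0.26, adjusted p = 0.108) and PSS1 (0.50, adjusted p = 0.262) did not pass in limma, with 1 of the 2, ETFB, at an unadjusted p of 0.05.

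**Figure D3:**
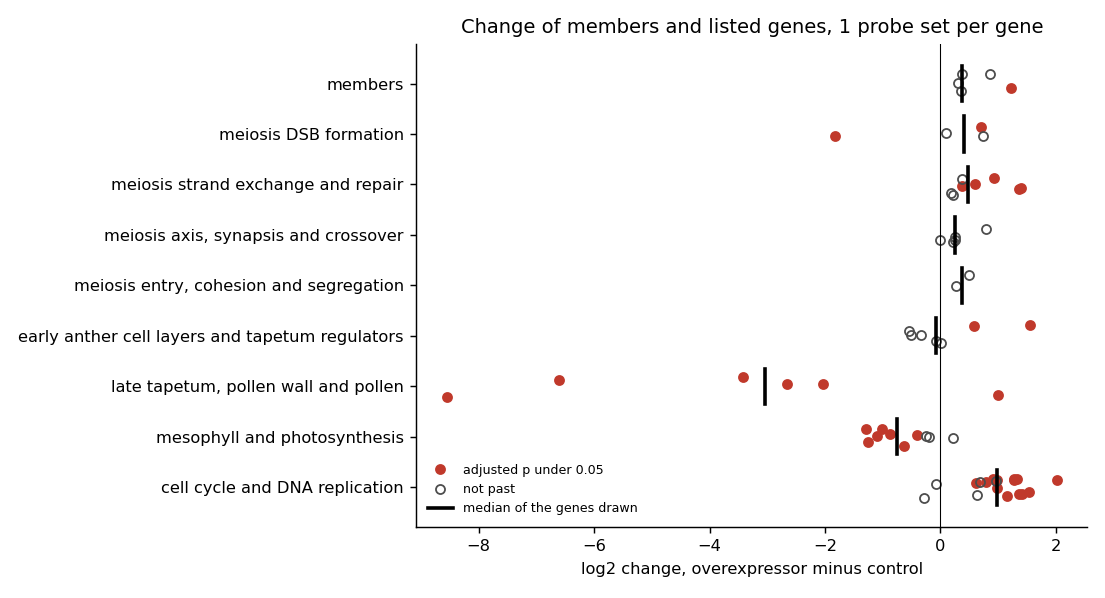
Log2 change, overexpressor minus control, of the members and of each listed gene that was tested, with 1 probe set per gene. Filled red points passed the threshold, open points did not, and black bars are the medians of the genes drawn. The meiosis lists lie mostly between 0 and 1.5 with TOP6A3 at -1.83, the early anther list lies on both sides of 0, and the late tapetum and pollen list lies lower apart from AP25.

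Genes that act with MSP1 and GAM1 in early anther layers and tapetum control had changes of both signs, and those that passed were higher. TDL1B, a relative of the MSP1 ligand TDL1A, read 177.8 and 171.5 in control leaves against 419.6 and 639.0 in overexpressor leaves, a rise of 1.55 (SE 0.23, adjusted p = 0.00499 in limma). A second TDL1B probe set was within background on all 4 arrays. TDL1A itself read 46.7 and 40.4 in control leaves against 20.2 and 50.6 in overexpressor leaves and was not tested. API5, a gene that acts in tapetum degeneration, rose from 1450.8 and 1399.3 to 2072.5 and 2178.5, by 0.58 (SE 0.09, adjusted p = 0.00629 in limma), a call lost with either control array left out.

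The receptor kinase gene FON1, which limits floral organ number, had a change of -0.51 (adjusted p = 0.0528), and SERK1 had 0.01 (adjusted p = 0.974). The bHLH genes TDR and EAT1, successive regulators of tapetum degeneration, read lower on both overexpressor arrays, with changes of -0.34 (adjusted p = 0.39) and -0.55 (adjusted p = 0.313). PTC1, a regulator of tapetum death and pollen wall formation, read 61.3 and 48.0 in control leaves and was within background in overexpressor leaves (9.3 and 11.8), at least 1.32-fold lower against the background level, and it was not tested. TIP2, another bHLH regulator, was above background on 2 of 4 arrays. Of the 7 tested genes of this list 2 rose, 0 fell (1, FON1, at an unadjusted p of 0.05) and 5 missed the threshold, with a median of -0.07. Across all genes 18.8% were called higher and 15.2% lower, so 2 of 7 is not far from the general share.

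Genes of the late tapetum, pollen wall and pollen were mostly lower. Of 6 tested genes 5 were lower and 1, the protease gene AP25, was higher, by 0.99. The shares of all genes called were 15.2% lower and 18.8% higher. CYP703A3, a pollen wall enzyme gene that GAMYB activates in rice anthers, read 345.5 and 291.6 in control leaves against 63.2 and 87.6 in overexpressor leaves, a change of -2.04 (SE 0.25, adjusted p = 0.00277 in limma). GAM1 itself read higher on those same overexpressor arrays but did not pass (adjusted p = 0.132 in limma). A link between GAM1 and CYP703A3 was not tested. RTS, C6, C4 and RAFTIN1 were also lower, with RTS within background on both overexpressor arrays and at least 93.9-fold lower. The overexpressor means of RTS and C6 lay below the filter on signal, so both entered the test through the control arrays, and both also passed with no filter.

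Most listed genes of the late tapetum and pollen thus differed between the groups, and so did most of those of the mesophyll. Which cells the samples held was not measured. The summed signal of the 8 late tapetum and pollen genes was 17542 to 18003 on the control arrays and 6652 to 7303 on the overexpressor arrays, with CP1 and INV4 near background throughout. AP25 made up 5481.5 and 6551.6 of the overexpressor sums, and without it the other 7 genes summed to 14486 and 15032 in control leaves against 1170 and 751.7 in overexpressor leaves. The summed signal of 11 mesophyll genes was 103493 to 107110 in control leaves and 72942 to 76074 in overexpressor leaves. CAB2R, rcaA1 and RBCS made up most of these sums. Their means were 30154, 25244 and 23707 in control leaves against 25319, 11764 and 20672 in overexpressor leaves. Of 10 tested, 7 were lower and 3 did not pass, where 15.2% of all genes were called lower. The 7 became 5, with 1 gene higher, after spike scaling, 5 without a trend, 6 with no filter and 9 after median centring. The largest falls were those of PORA (-1.29), PSAG1 (-1.26) and rcaA1 (-1.10), genes of chlorophyll synthesis, photosystem I and Rubisco activation. A dimmer PSAG1 probe set had -0.52 with overlapping groups (adjusted p = 0.329 in limma). CHLH, counted as lower at -0.64, had 0.52 on a dimmer probe set (adjusted p = 0.326 in limma). The 3 that did not pass in limma were CAB2R (-0.25, adjusted p = 0.0526), RBCS (-0.20, adjusted p = 0.0888) and CHLD (0.22, adjusted p = 0.256). CAB2R and RBCS were the brightest of the list. RBCS, a Rubisco small subunit gene, read 23574.6 and 23840.0 in control leaves against 21526.4 and 19817.5 in overexpressor leaves, on a probe set ending in _x_at. The RBCS probe sets disagreed. A dimmer one, also ending in _x_at, was lower and passed (-0.43, adjusted p = 0.0274 in limma). Another had -0.39 (adjusted p = 0.0684) and did not pass, and a further one was above background on 1 of 4 arrays. RBCS1, another such gene, was within background on all arrays. In bulk leaf RNA, fewer cells of a type and less RNA per cell cannot be told apart.

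Genes of the cell cycle and DNA replication were mostly higher on the arrays where the members read higher. Of 18 tested genes 13 rose, 0 fell (0 also at an unadjusted p of 0.05) and 5 missed the threshold, with a median of 0.97. Of all genes 18.8% were called higher and 15.2% lower. ORC1, among the 13, had a control mean below the filter, entered the test through the overexpressor arrays and missed the threshold with no filter. The 13 became 8 with no filter, 7 without a trend, 4 without control replicate 1 and 8 without control replicate 2. PCNA rose by 0.97 (SE 0.13), MCM2 by 1.36 (SE 0.20), CYCD3-1 by 1.42 (SE 0.19) and CYCD4-1 by 2.02 (SE 0.31). The summed signal of the 19 genes was 4694 and 5040 in control leaves, and 7937 and 11564 in overexpressor replicates 1 and 2. Its part in the values of the members was not tested.

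Within the overexpressor pair, the members differed in which array was higher. MSP1, ASY1 and MEAL1 were higher on replicate 2, as were 17 of the 18 tested cell cycle genes, against 52.5% of all genes. GAM1 and HEI10 were higher on replicate 1. In the control pair, HEI10 alone among the 5 was higher on replicate 1.

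**Figure D4:**
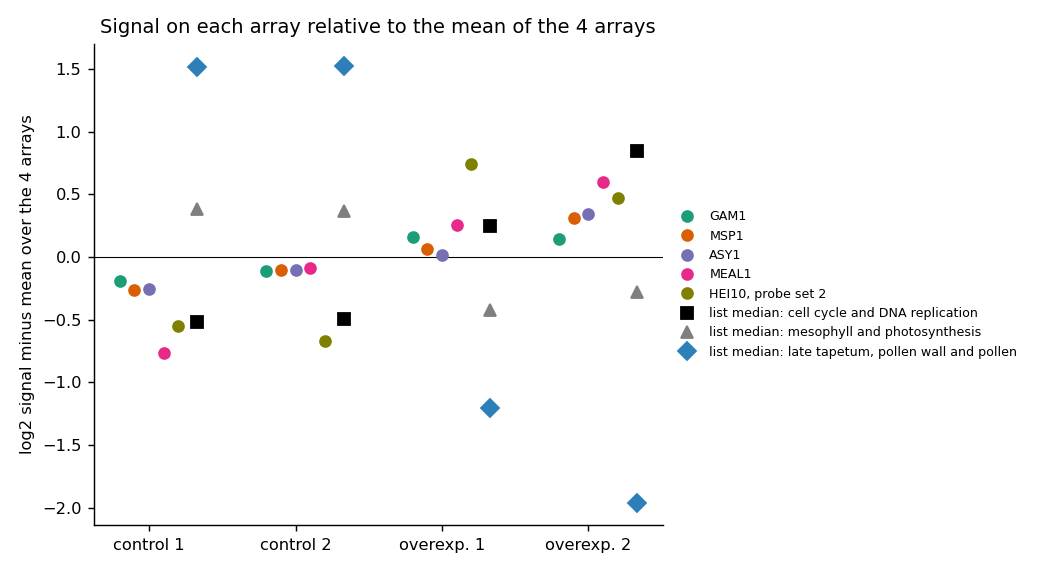
Log2 signal on each array minus its mean over the 4 arrays. Circles are the 5 tested member probe sets and the larger symbols are medians of the tested genes of 3 lists. The members and the cell cycle list (black squares) lie below 0 on the control arrays and above 0 on the overexpressor arrays, and the mesophyll (grey triangles) and late tapetum and pollen (blue diamonds) lists lie the other way.

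The named genes with the profile most like each member were sought by the distance between log2 values centred on their mean over the 4 arrays. HEI10 lay nearest to BZIP60, a bZIP transcription factor gene, at a distance of 0.06. BZIP60 read 550.4 and 488.8 in control leaves against 1357.8 and 1149.1 in overexpressor leaves. C3H11 followed at 0.13, and 6 of 2717 named probe sets lay within 0.2 of HEI10. MEAL1 had no named probe set within 0.2, and its nearest were AS2 (0.22) and the lipoxygenase gene LOX1.1 (0.23).

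The profiles of the other members were common ones. Within 0.2 lay 327 named probe sets for GAM1, 119 for MSP1 and 84 for ASY1. The nearest were MUB4 and mfs1 for GAM1 (0.01 and 0.02), STLP4 and the formin gene BUI1 for MSP1 (0.02 for both), and LTD and the glycolate oxidase gene GLO5 for ASY1 (0.04 and 0.05). With 4 arrays, such distances describe these samples only.

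With 2 arrays a group the smallest two-sided p of an exact permutation test is 0.33, so no single gene could be tested by permutation, and the number of arrays limits the precision of every value given.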

How the data were processed

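Per the labels' protocols, total RNA of leaves (about 10 µg) was made into biotinylated cRNA, and each of the 4 samples was hybridised to its own array. The deposited intensity values are on a linear scale and had been brought by the authors to a common level, since all 4 had a trimmed mean of 500.1 (2% off either end). Which software made them is not stated in the labels. They were kept as deposited, 3.6 was added (the 10th percentile of all values), and log2 taken, which understates changes of dim transcripts. The 123 control probe sets and all probe sets with a mean log2 value below the median were left out, and the 28629 others were compared in R 4.3.3 with the lmFit and eBayes functions of limma 3.58.1, letting the spread follow the signal, with Benjamini-Hochberg adjustment over all of them and a threshold of 0.05. Adjusted p-values come from this test, and intervals are 95% intervals of its log2 change. The procedure was tested on simulated data. The background level of an array was the 95th percentile of 69 control probe sets for transcripts not from rice.

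Probe sets were assigned to genes with the platform annotation, and genes were named, without use of coordinates, from RefSeq genes of assembly ASM3414082v1. Listed genes were matched by symbol or synonym, genes that only share a symbol with the one meant were left out, and the brightest tested probe set stood for a gene. Genes were named by a rule: every member and OsRR6, the members of each list past the threshold (at most 6, or the 2 brightest where none passed), and the 2 named genes nearest to each member in profile. Other genes named were chosen after their values were seen. The members and lists were chosen with earlier results of these data known. Groups came from the sample titles. 14 other settings covered the pseudocount, normalization, filter, model of the spread, replicate number as a block, and each array left out, with a further one for the lists, the mean over the probe sets of a gene.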

Additional observations from a re-analysis of the deposited data

How the results depend on the processing

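The 5 tested member probe sets had a positive change in every setting in which they were tested, and with the filter at the 75th percentile none was tested. The number of members higher past the threshold was 1 in the main setting, 5 after scaling to the hybridisation spikes, 0 with no filter on signal, and 0 to 2 with 1 array left out. After spike scaling the changes were 0.61 (GAM1), 0.68 (MSP1), 0.67 (ASY1) and 1.16 (MEAL1), all past the threshold, and that of HEI10 with no filter was 1.22 without passing, with a larger SE (0.34 against 0.28) and 57258 probe sets adjusted over. With 1 array left out the changes ranged from 0.26 to 0.34 (GAM1), 0.25 to 0.49 (MSP1), 0.20 to 0.53 (ASY1), 0.51 to 1.19 (MEAL1) and 1.08 to 1.35 (HEI10).

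In the 5 meiosis and early anther lists, 8 of 26 tested genes were higher and 1 was lower, against 18.8% and 15.2% of all genes. The higher count was 13 after spike scaling, 4 with the filter at the 75th percentile, 5 without a trend, 6 under quantile normalization, cyclic loess and median centring (RPA1A and RPA2B lost), 7 under the replicate block and with no filter (RPA2B lost), and 2 to 10 with 1 array left out. The lower count was 2 (TOP6A3 and FON1) under cyclic loess, median centring, the filter at the 75th percentile and the replicate block, and 1 to 2 with 1 array left out. Over all probe sets 4410 were higher and 3760 lower, against 11530 and 2117 after spike scaling, 2580 and 2461 without a trend, 3030 and 4631 after median centring, and 1412 to 6152 and 1607 to 5233 with 1 array left out. The OsRR6 change passed at -0.42 after median centring and at -0.32 with the filter at the 75th percentile, was -0.0022 (adjusted p = 0.989) after spike scaling, and ranged from -0.41 (without overexpressor replicate 1, adjusted p = 0.00514) to -0.22 with 1 array left out.

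Samples of different groups share only a replicate number. Those numbered 1 deviated from their group means with a correlation of -0.02, and the fit with the replicate number as a block gave 4236 higher and 3695 lower probe sets and changed no call of a member (HEI10 1.22, adjusted p = 0.029). The cause of these differences was not tested. Of the 25 listed meiosis genes that were matched to a probe set, 6 had signals too low for the filter, and changes in these could not be tested.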
